A study of Arabidopsis thaliana with 6 samples.

Results

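Transcript levels of 8 Arabidopsis genes of starch turnover were examined at the end of the night (EN), just before light onset, in young leaves of the wild type Ws and of plants labelled as the T-DNA insertion mutant bzip63-2. The genes were SEX1, PWD, DPE2, DPE1, BAM9, PGM1, GBSS1 and BE2, and each was measured by 1 of the 22746 probe sets of the ATH1 array that are not controls. The set was selected on measured values, since it was put together with the values of this same comparison known. The differences between genotypes are therefore given as a description, with no test. Of the 8 probe sets, 3 (PWD, DPE1 and BE2) were named by the platform annotation and 5 only by the identifier pairs of the study's table of changed genes.

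Both groups were plants of the Ws background, 25 d old, grown in soil at 10 h of light and 14 h of dark, with neither group given any further treatment. Each of the 3 arrays per genotype was hybridised with RNA from a pool of 5 plants. The 4 youngest leaves of each plant were taken, and the study's methods add the shoot apical meristem. The mutant carries the FLAG_610A08 insertion in bZIP63, a leucine zipper transcription factor, and is the only mutant line on the arrays.

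Transitory starch is made in leaf chloroplasts by day and degraded at night to feed respiration and growth. Plastid phosphoglucomutase supplies the glucose 1-phosphate from which ADP-glucose is formed, and starch synthases and branching enzymes then build the granule. At night, dikinases phosphorylate the glucans at the granule surface so that beta-amylases can release maltose, and disproportionating enzymes act on the remaining short glucans in the plastid and on maltose in the cytosol.

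The values were log2 intensities with a lowest value of 2.47 shared by every array, and 39.4% to 42.2% of the values on each array were within 0.05 of this floor. Arrays correlated at 0.993 to 0.994 within Ws, at 0.995 to 0.996 within the bzip63-2-labelled arrays and at 0.990 to 0.993 between the groups. The targeted gene itself read higher in the arrays labelled as its insertion mutant, and that label states no transcript level. bZIP63 (AT5G28770) had log2 values of 5.32, 5.51 and 5.91 in Ws and of 8.65, 8.55 and 8.78 in the bzip63-2-labelled arrays. Where its probe set lies with respect to the T-DNA was not determined here, and each direction below rests on the array labels. Of 11 leaf marker genes 1 had a named probe set, RCA (rubisco activase), at 11.5 to 11.8 on every array. The meristem genes CLV3 and UFO lay near the floor on every array, and the other 4 meristem markers listed were not analysed here. Among 3 named root markers, EXPA7 and EXPA18 were at the floor on all 6 arrays, whereas PYK10, a beta-glucosidase abundant in roots, had a log2 difference of 1.21, with values of 3.25, 3.84 and 3.63 in Ws and 4.95, 4.87 and 4.53 in the bzip63-2-labelled arrays. The summed linear level of the 3 root markers was 20.6 to 25.4 in Ws and 34.1 to 41.9 in the bzip63-2-labelled arrays. EXPA7 and EXPA18 held the same floor value on every array, so PYK10 alone made this sum differ. The part of root RNA in the differences below was not tested. In RNA from whole leaves, fewer cells of a type and less RNA per cell cannot be told apart.

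Of the 8 starch genes, 5 were higher in every bzip63-2-labelled array than in any Ws array (SEX1, PWD, DPE2, PGM1 and GBSS1), 1 was lower (BAM9), and the groups overlapped for DPE1 and BE2. Over all 22746 probe sets, the groups did not overlap with bzip63-2 higher for 6.81% and with bzip63-2 lower for 3.23%. Among the 8242 probe sets with a mean log2 value above 3, to which all 8 genes belong, these shares were 14.9% and 6.22%. Because the genes were chosen by this contrast, nothing is read from their count. None of the 48 values of these genes lay within 0.05 of the floor.

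**Figure D1:**
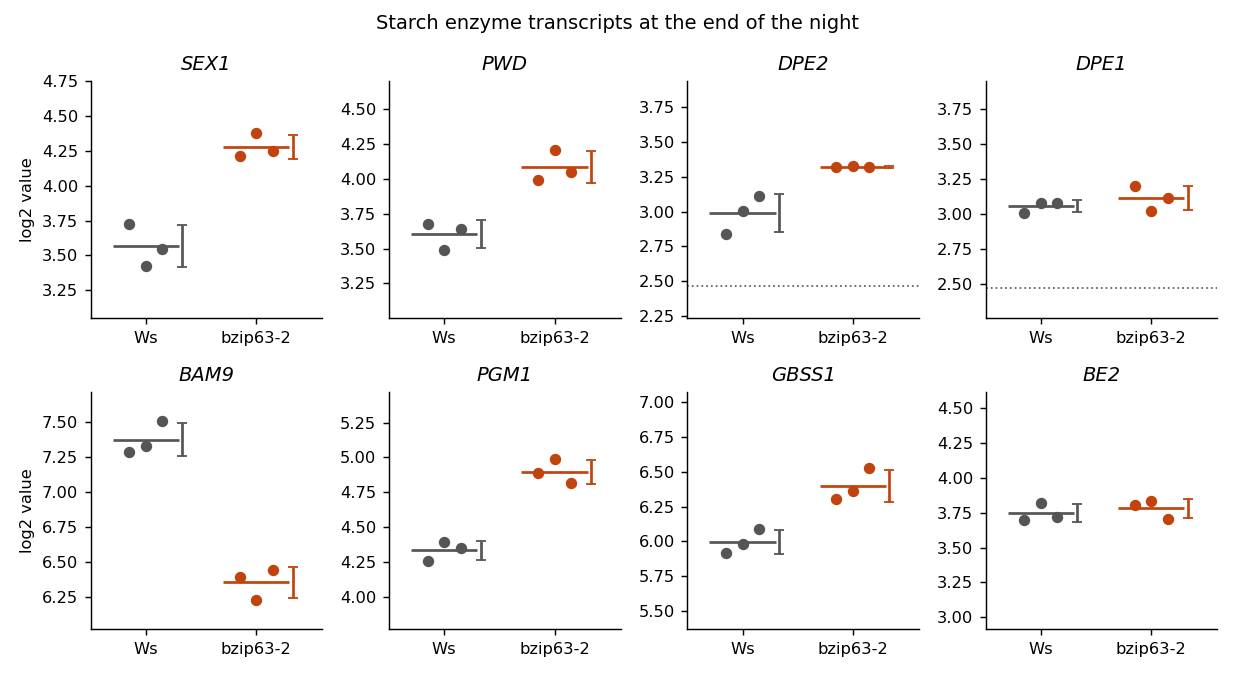
Deposited log2 values of the 8 starch genes in 3 Ws arrays (grey) and 3 bzip63-2-labelled arrays (orange). Points are arrays, horizontal lines are group means, error bars are the SD (n = 3), and every panel spans a log2 range of the same width. The dotted line is the array floor of 2.47, which falls within the panels of DPE2 and DPE1 only. The groups do not touch in 6 panels and overlap for DPE1 and BE2.

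The glucan phosphorylating enzymes were considered first. SEX1 (AT1G10760) encodes glucan, water dikinase, which starts starch degradation by phosphorylating amylopectin. Its log2 values were 3.73, 3.43 and 3.55 in Ws and 4.21, 4.38 and 4.25 in the bzip63-2-labelled arrays. The lowest of the latter lay 0.49 above the highest Ws array, so the gap between genotypes exceeded the whole range within either. The log2 difference was 0.71 (standard error 0.10), a 1.64-fold higher level. It was the 43rd highest of all 22746 probe sets and the 42nd highest of the 8242 with a mean above 3.

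PWD (AT5G26570) encodes phosphoglucan, water dikinase, which acts on glucans that SEX1 has already phosphorylated. It was measured at 3.68, 3.49 and 3.64 in Ws and at 3.99, 4.21 and 4.05 in the bzip63-2-labelled arrays. The groups were separated by 0.31, with a log2 difference of 0.48 (standard error 0.08), or 1.39-fold. PWD ranked as the 135th highest difference of all probe sets and the 127th highest of the 8242 with a mean above 3.

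Both dikinase genes ranked the replicates of each genotype in the same order. In Ws, replicate 1 was the highest and replicate 2 the lowest for SEX1 and for PWD. In the bzip63-2-labelled arrays, replicate 2 was the highest and replicate 1 the lowest for both. SEX1 deviated from its Ws mean by 0.16, -0.14 and -0.02 and PWD by 0.07, -0.11 and 0.04, and from the bzip63-2 mean SEX1 deviated by -0.07, 0.10 and -0.03 and PWD by -0.09, 0.13 and -0.03. These deviations do not contain the genotype difference. Of the 28 pairs that the 8 genes can form, 2 shared the order of replicates in both genotypes, and the other was PGM1 with BE2. The values of an array share its RNA and its normalization, so these orders are a description only. How often other pairs of probe sets share both orders was not counted, so nothing is read from the 2 pairs.

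**Figure D2:**
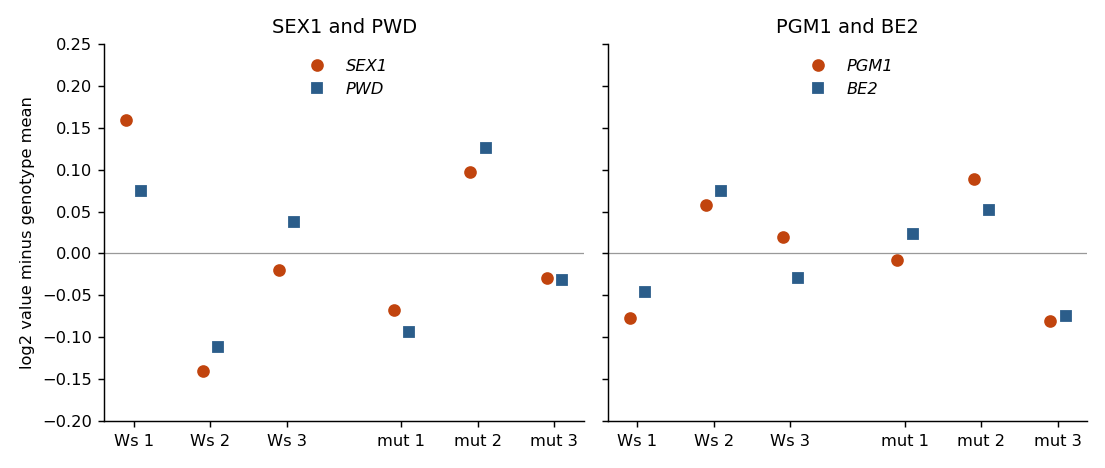
Deviation of each array's log2 value from the mean of its genotype for SEX1 and PWD (left) and for PGM1 and BE2 (right). Each point is an array, with mut standing for bzip63-2-labelled arrays, and within each panel the genes rank the 3 replicates of a genotype in the same order.

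Since both values of a ratio come from the same array, the change of the SEX1 to PWD ratio was also followed. Relative to the Ws mean of this ratio, the Ws arrays lay at 0.09, -0.03 and -0.06 on the log2 scale and the bzip63-2-labelled arrays at 0.26, 0.20 and 0.24. The SEX1 probe set thus differed by 0.23 more than that of PWD, and the arrays did not overlap. The SD of the ratio was 0.08 in Ws and 0.03 in the bzip63-2-labelled arrays (n = 3 each), whereas that of SEX1 alone was 0.15 and 0.09. The genes were chosen by this contrast, and how often ratios of other probe sets separate the groups was not counted. Nothing is therefore read from the separation of this ratio or of the ratios below.

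The disproportionating enzymes differed from each other. DPE2 (AT2G40840) encodes the cytosolic glucanotransferase that metabolises maltose exported from the plastid. It had log2 values of 2.84, 3.01 and 3.11 in Ws and of 3.32, 3.33 and 3.32 in the bzip63-2-labelled arrays. The Ws values were spread and the others nearly equal, and the lowest of the 6 was 0.37 above the floor. The log2 difference was 0.34 (standard error 0.07), or 1.26-fold. Its rank was 442nd of all probe sets and 416th of the 8242 with a mean above 3. The SD was 0.14 in Ws and 0.0067 in the bzip63-2-labelled arrays, the smallest of any of the 8 genes in either group.

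DPE1 (AT5G64860) encodes the plastid counterpart, which acts on maltotriose and other short glucans. It was measured at 3.01, 3.08 and 3.08 in Ws and at 3.20, 3.02 and 3.11 in the bzip63-2-labelled arrays, so the groups overlapped. The log2 difference was 0.06 (standard error 0.05). The DPE2 to DPE1 ratio, taken within arrays and set against its Ws mean, was -0.09, -0.00 and 0.10 in Ws and 0.19, 0.37 and 0.28 in the bzip63-2-labelled arrays. The change of 0.28 left a gap of 0.09 between the groups.

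BAM9 (AT5G18670), a beta-amylase family member regarded as lacking catalytic activity, was the only gene of the set with lower values. It had log2 values of 7.29, 7.33 and 7.51 in Ws and of 6.39, 6.23 and 6.44 in the bzip63-2-labelled arrays. The highest of the latter was 0.84 below the lowest Ws array. The log2 difference was -1.02 (standard error 0.09), so Ws was 2.03-fold higher, and this was the 15th lowest difference of all probe sets. BAM9 was also the 15th lowest of the 8242 with a mean above 3. Its lowest value was 3.76 above the floor. Set against SEX1 within each array, the SEX1 to BAM9 ratio was 1.74 higher on the log2 scale in the bzip63-2-labelled arrays, and the lowest of these arrays exceeded the highest Ws array by 1.37.

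**Figure D3:**
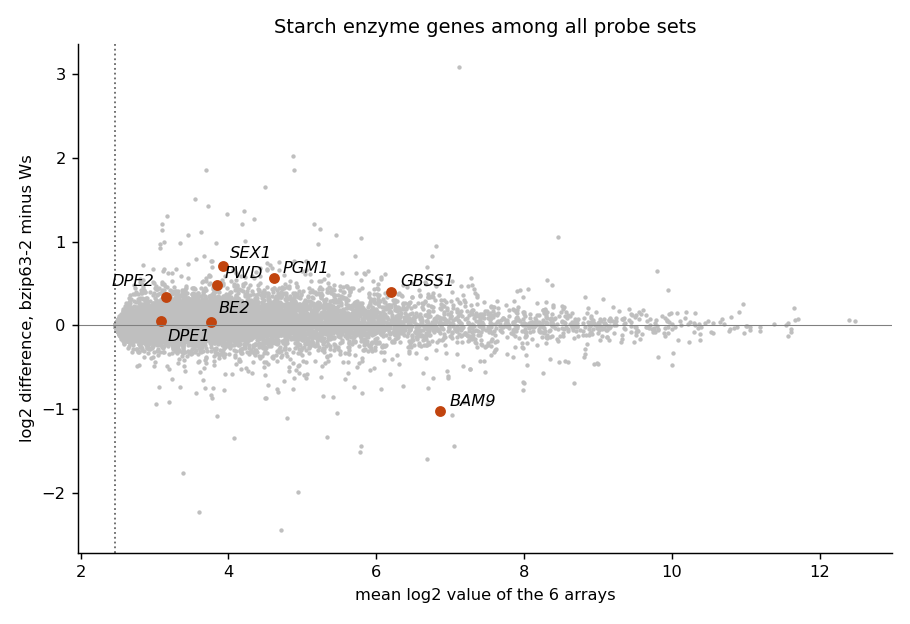
Log2 difference (bzip63-2-labelled arrays minus Ws) against the mean log2 value of the 6 arrays for all 22746 probe sets (grey), with the 8 starch genes in orange and the floor as a dotted line. BAM9 lies among the lowest differences at -1.02, SEX1 among the highest at 0.71, and DPE1 and BE2 lie close to 0.

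On the side of synthesis, PGM1 (AT5G51820) encodes the plastid phosphoglucomutase, without which leaves accumulate almost no starch. It was measured at 4.26, 4.39 and 4.35 in Ws and at 4.89, 4.99 and 4.82 in the bzip63-2-labelled arrays. The groups were 0.43 apart. The log2 difference was 0.56 (standard error 0.06), or 1.48-fold. It ranked 87th of all probe sets and 85th of the 8242 with a mean above 3.

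GBSS1 (AT1G32900) encodes the granule-bound starch synthase that makes amylose and whose transcript is known to follow the circadian clock. It had log2 values of 5.92, 5.99 and 6.09 in Ws and of 6.31, 6.36 and 6.53 in the bzip63-2-labelled arrays. The groups lay 0.22 apart, with a log2 difference of 0.40 (standard error 0.08), or 1.32-fold. Its rank was 260th of all probe sets and 245th of the 8242 with a mean above 3.

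BE2 (AT5G03650) encodes a branching enzyme that introduces the branch points of amylopectin, and RefSeq lists it as SBE2.2. RefSeq also gives BE2 as a synonym of the isoamylase gene ISA2 (AT1G03310), which was not analysed here, so the values below and the ratios over BE2 hold for AT5G03650 only. It was measured at 3.70, 3.82 and 3.72 in Ws and at 3.80, 3.83 and 3.71 in the bzip63-2-labelled arrays, and the groups overlapped. The log2 difference of 0.03 (standard error 0.05) matched the median difference of the 8242 brighter probe sets, which was also 0.03. Its sign turned to -0.02 when quantile normalization was repeated and to -0.02 when arrays were centred on the median of these brighter probe sets.

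Set against BE2 within arrays, PGM1 was shifted more evenly than GBSS1. The PGM1 to BE2 ratio, relative to its Ws mean, was -0.03, -0.02 and 0.05 in Ws and 0.50, 0.57 and 0.52 in the bzip63-2-labelled arrays. The GBSS1 to BE2 ratio was -0.03, -0.09 and 0.12 in Ws and 0.25, 0.28 and 0.57 in the bzip63-2-labelled arrays. The highest of these came from bzip63-2 replicate 3, which gave the highest GBSS1 value and the lowest BE2 value of the bzip63-2-labelled arrays. The evenness of the PGM1 ratio also depends on BE2, with which PGM1 shares its order of replicates. Without BE2, the SD in the bzip63-2-labelled arrays was 0.08 for PGM1 and 0.12 for GBSS1 (n = 3 each).

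The size of several differences depended on the floor. When the lowest value of the arrays was subtracted on the linear scale before the ratio was taken, a step chosen after the values were seen, SEX1 was 2.19-fold, PWD 1.72-fold and DPE2 1.85-fold higher. The deposited values gave 1.64, 1.39 and 1.26. PGM1 moved from 1.48-fold to 1.66-fold, GBSS1 from 1.32-fold to 1.35-fold and BAM9 from 2.03-fold to 2.11-fold lower. DPE2 thus passed GBSS1, PWD and PGM1 in the order of folds, and PWD passed PGM1, while DPE1 and BE2 stood at 1.12-fold and 1.04-fold. Whether the floor is an additive background was not tested, so the subtracted values are no better estimate than the deposited ones.

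**Figure D4:**
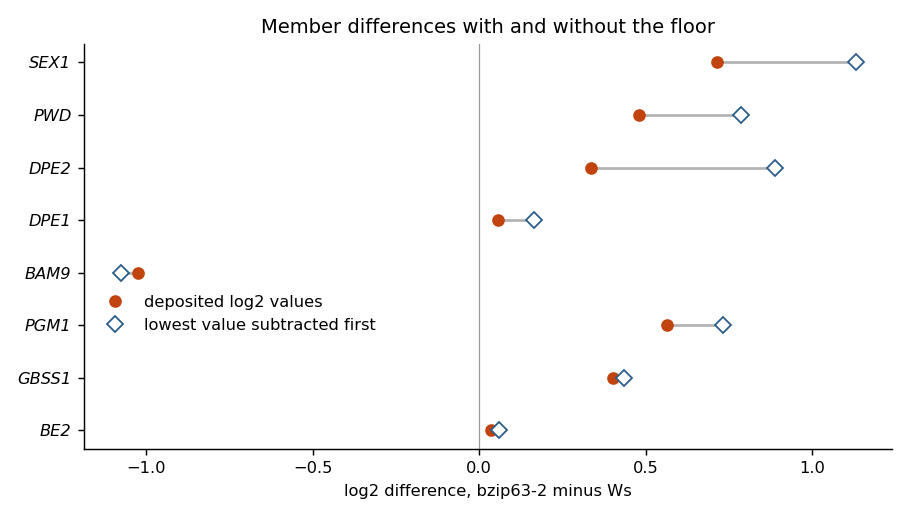
Log2 difference (bzip63-2-labelled arrays minus Ws) of each starch gene from the deposited values (circles) and after the lowest array value was subtracted on the linear scale (diamonds). The dim genes SEX1, PWD and DPE2 move most, DPE2 from 0.34 to 0.89, and of the 6 genes whose groups do not overlap the brighter BAM9 and GBSS1 move least.

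To see whether the remaining pathway showed similar changes, 52 other genes of starch degradation, starch synthesis, plastid transport and hexose phosphate metabolism were listed. The platform annotation named a probe set for 9 of these, and the other genes were not analysed here apart from the NTT pair below. Genotypes were compared with limma, with Benjamini-Hochberg adjustment over all probe sets. None of the 9 genes was called higher or lower at an adjusted p under 0.05, where limma called 0% of the 22746 probe sets. At an unadjusted p under 0.05, 0 of the 9 were higher and 1 was lower, against 984 higher and 465 lower of all probe sets. The 9 log2 differences ran from -0.12 to 0.05 with a median of 0.00. The median over all probe sets, many of them near the floor, was also 0.00, and over those with a mean above 3 it was 0.03. Of the 9 genes only SS5 and PTST3 had a mean above 3. For the others the floor may hold differences close to 0, so nothing is read from the median of the 9. Among probe sets with a mean above 3 limma called 0.692%, and neither SS5 nor PTST3 was among these.

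The 3 genes of starch degradation had values of at most 2.58. GWD2, a dikinase homologue outside the plastid, lay between 2.48 and 2.58, and the secreted alpha-amylase AMY1 at 2.47 to 2.48. LESV, a starch-binding protein of the granule, had values of 2.54 to 2.55. At such values a difference between genotypes was not detectable.

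Of the 6 genes of starch synthesis, APL3 and APL4, large subunits of ADP-glucose pyrophosphorylase, had values of 2.49 to 2.52. SS5, a starch synthase family member that promotes granule initiation, was measured at 4.27, 4.03 and 4.18 in Ws and at 4.10, 4.17 and 4.33 in the bzip63-2-labelled arrays. Its groups overlapped, with a log2 difference of 0.04 (95% interval -0.21 to 0.29) and an adjusted p of 0.97 from limma. PTST3, a granule initiation factor, had 3.78, 3.75 and 3.78 in Ws and 3.78, 3.86 and 3.77 in the bzip63-2-labelled arrays, a log2 difference of 0.03 (95% interval -0.05 to 0.11). Its homologue PTST2 had a log2 difference of 0.04 (95% interval -0.02 to 0.10), with values between 2.77 and 2.86.

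PTST1 (AT5G39790) encodes the protein that brings GBSS1 to the starch granule, and it was the only one of the 9 genes whose groups did not overlap. Over all probe sets the groups did not overlap for 6.81% (bzip63-2 higher) and 3.23% (bzip63-2 lower), so nothing is read from this count. Its log2 values were 2.73, 2.73 and 2.73 in Ws and 2.65, 2.55 and 2.65 in the bzip63-2-labelled arrays. The log2 difference was -0.12 (standard error 0.03), and nothing is read from its sign at values this close to the floor. It did not pass the test over all probe sets (adjusted p = 0.60 from limma; unadjusted p = 0.0196 from limma), and its lowest value was 0.076 above the floor. The SD of its Ws values was 0.0023 (n = 3).

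**Figure D5:**
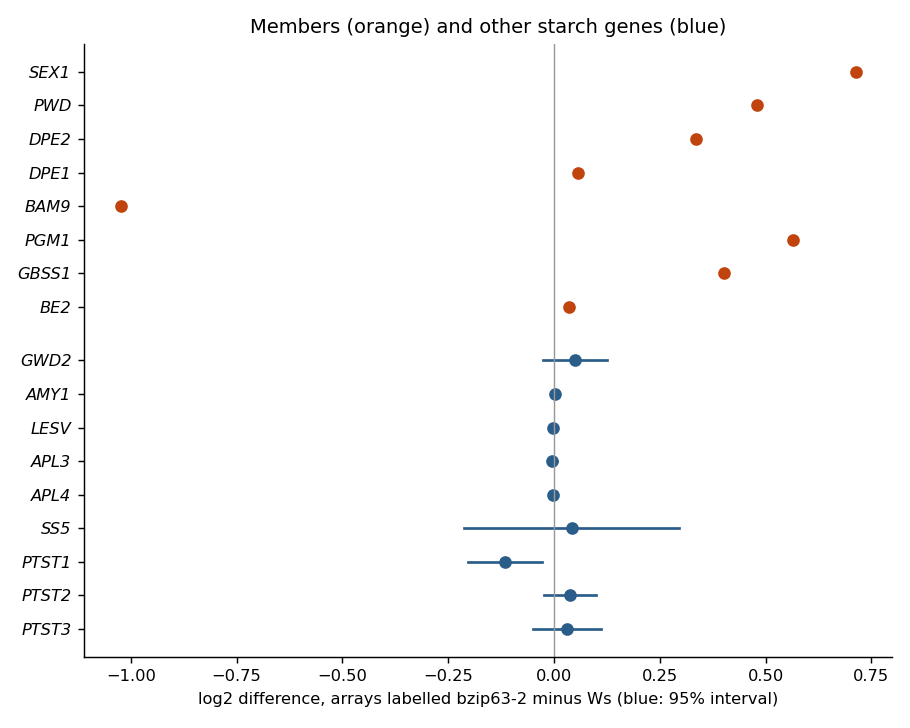
Log2 difference (bzip63-2-labelled arrays minus Ws) of the 8 starch genes (orange), drawn without an interval because this contrast chose them, and of the 9 other starch genes named by the platform annotation (blue), with 95% intervals from limma (n = 3 arrays per group). Differences of the blue genes run from -0.12 (PTST1) to 0.05 (GWD2). Intervals of several dim genes are narrower than their symbols, and near the floor a narrow interval does not show an unchanged level.

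The plastid ATP importers NTT1 and NTT2 share a single probe set. Only the study's table names it, so it too was chosen by this contrast. It had log2 values of 5.53, 5.55 and 5.58 in Ws and of 6.08, 6.03 and 5.79 in the bzip63-2-labelled arrays. The groups did not overlap and the log2 difference was 0.42 (standard error 0.09), close in size to that of GBSS1, and the signal cannot be divided between the NTT genes.

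Finally, probe sets with profiles like those of SEX1, BAM9 and GBSS1 were looked up among 4208 singly named probe sets with a mean above 3. Likeness was the root-mean-square distance between log2 profiles centred over the 6 arrays, which includes the genotype difference. A shared direction between genotypes and a shared order of arrays are therefore what this measure selects, and nothing further is read from them. For SEX1, the 5 nearest were TRM20 (distance 0.12), SDRB (0.12), PWD (0.13), WRKY53 (0.13) and PORB (0.13). PORB, a chlorophyll synthesis enzyme, had log2 values of 6.31, 6.35 and 6.33 in Ws and 7.09, 6.96 and 7.04 in the bzip63-2-labelled arrays. WRKY53, a transcription factor of leaf senescence, had values of 2.98, 2.93 and 2.94 in Ws and 3.44, 3.63 and 3.80 in the bzip63-2-labelled arrays.

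For BAM9, the nearest probe set was that of AT4G28240 at a distance of 0.09, with log2 values of 5.98, 5.80 and 6.19 in Ws and 5.09, 4.72 and 5.03 in the bzip63-2-labelled arrays. AT3G26510, AT5G12110, AT4G29950 and AT1G23390 followed at 0.14, 0.14, 0.18 and 0.19.

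For GBSS1, AT1G02300 was the nearest and lay at a distance of 0.04, with log2 values of 3.59, 3.59 and 3.64 in Ws and 3.90, 3.93 and 4.12 in the bzip63-2-labelled arrays. AT4G37550, AT5G47610, AT5G58950 and AT3G10770 followed at 0.04, 0.05, 0.05 and 0.06. Distances were not compared between the 3 genes.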

How the data were processed

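RNA of 6 leaf pools was measured on Affymetrix ATH1 arrays. The authors processed them by RMA in Affymetrix Expression Console and analysed them with affylmGUI, for both of which no version is stated in the sources used here. Each probe set has 1 deposited log2 value on each array, and the log2 scale was read from the range of the values. The number of arrays limits the precision, and with 3 arrays against 3 an exact permutation test cannot give a p below 0.1.

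limma 3.58.1 (lmFit, eBayes; R 4.3.3) was used to compare the genotypes without a filter or a block. It was run on 22746 probe sets, with 64 controls excluded. Ws was subtracted in every difference, and calls were made at an adjusted p (Benjamini-Hochberg, over all probe sets) under 0.05. The fit was tested on simulated data with large changes planted in brighter probe sets only. That test does not show how well small differences of dim genes are detected. Names of probe sets came from the platform annotation with RefSeq genes of TAIR10.1 (13436 with a locus code), or from the identifier pairs of the study's table, whose values were not used. A gene with several probe sets would have been given by the brightest; each gene here had 1. Members and gene lists were chosen with earlier results of these data known. Genes were named in the text if they were members, bZIP63, markers, or among the 5 nearest profiles; all 9 other starch genes are given although the rule asked for up to 5 bright ones per list. QQS and the NTT pair were added after their values were seen. Promoter motifs were planned and are not analysed here. Alternatives changed the filter on dim values, the prior, the weights, the normalization or the threshold, added a replicate block, or omitted 1 array at a time.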

Additional observations from a re-analysis of the deposited data

How the results depend on the processing

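For the 8 starch genes, the groups of 6 did not overlap in the deposited values, after quantile normalization was repeated and after median centring. Leaving out 1 array cannot make separated groups overlap, so a count of at least 6 was then fixed in advance. It was 6 each time, except 7 without bzip63-2 replicate 2, when DPE1 also separated. The share over all probe sets with an array left out was not counted, so nothing is read from these counts. Leaving out one array gave log2 differences of 0.64 to 0.79 for SEX1, 0.42 to 0.53 for PWD, 0.26 to 0.40 for DPE2, 0.34 to 0.45 for GBSS1, -1.07 to -0.96 for BAM9, 0.52 to 0.60 for PGM1, 0.01 to 0.10 for DPE1 and 0.01 to 0.07 for BE2. Centring arrays on the median of probe sets with a mean above 3 lowered the log2 difference of each of the 8 genes. SEX1 came to 0.66, PWD to 0.43, DPE2 to 0.28 and GBSS1 to 0.35. BAM9 came to -1.08, PGM1 to 0.51, DPE1 to 0.003 and BE2 to -0.02. Of the 22746 probe sets, limma called 0 higher and 0 lower. The count of 0 in each direction was also found with repeated quantile normalization, with weighted arrays, with a robust or a trended prior, and with a replicate block. It called 28 higher and 29 lower with means of 3 or less left out, 13 and 15 with the dimmest ones left out (11371 tested), and 984 and 465 at an unadjusted p under 0.05. Omission of single arrays gave counts of 0 to 9 (higher) and of 0 to 25 (lower), the most without Ws replicate 3; the cause was not tested. Of the 9 other starch genes 0 were called under each of these settings, except 1 lower (PTST1) at an unadjusted p under 0.05. Where limma called 0 of all probe sets this was fixed in advance, and the filters left 2 and 4 of the genes to test. Counting the NTT probe set as well gave 0, which was likewise fixed in advance. Same-numbered arrays deviated with correlations of -0.04, 0.02 and 0.05, which gave no sign that the numbers pair the arrays. In this balanced design a paired fit cannot change the differences, so their equality there is no test. No gene of the set had a second named probe set. The dim genes DPE1 and DPE2 and the genes at the floor limit what the arrays can show.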

Other observations

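QQS, a gene of Arabidopsis that affects leaf starch content, was found by a search of gene names and was not on the lists. Its log2 values were 2.57, 2.48 and 2.48 in Ws and 2.48, 2.48 and 2.48 in the bzip63-2-labelled arrays. Only Ws replicate 1 lay more than 0.05 above the floor, so no difference between genotypes was detectable. The smallest spread among the 8 starch genes was that of DPE2 in the bzip63-2-labelled arrays, at 0.0067 (SD, n = 3). Pooled over both genotypes, the SD of DPE2 was 0.0964, against a median pooled SD of 0.114 among the 8242 brighter probe sets (mean above 3).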
